A study of Gallus gallus with 6 samples.

Results

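Genes of DNA end joining and of the RAG recombinase were followed in the chicken B lymphoma line DT40, whose immunoglobulin genes go on changing in culture. The group was set as 10 named genes: the recombinase subunit genes RAG1 and RAG2; the end joining genes XRCC5, XRCC6, PRKDC, XRCC4, LIG4 and NHEJ1; and the end protection genes TP53BP1 and RIF1. Rows carrying these symbols were found for 8 of the 10 genes among 17108 genes in the tables, and all 8 passed the filter on low counts. RAG1 and NHEJ1 were matched neither by symbol nor by NCBI gene identifier and were not analysed here. RNA had been sequenced from 3 wild type cultures, named Clone 18, and 3 cultures of the genotype Bach2-/-. Both groups are DT40 cells with no further allele or agent in the labels. The knockout columns are named Bach2ko1 with a replicate number. The labels do not say how many knockout clones were used, so genotype and clone cannot be told apart if there was only 1.

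Double-strand breaks are made on purpose by the RAG1 and RAG2 proteins when antigen receptor genes are assembled, and all vertebrate cells meet such breaks by accident. In classical end joining, the Ku heterodimer binds the free ends and recruits the kinase DNA-PKcs, and a complex of XRCC4 and DNA ligase IV seals them. The proteins encoded by TP53BP1 and RIF1 hold back resection of the ends, which steers breaks away from homologous recombination. Chicken B cells diversify their rearranged immunoglobulin genes mainly by gene conversion, a homologous recombination process, and RAG2 RNA is known from bursal B cells that do so.

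The deposited counts summed to between 8999010 and 20647281 per library. BACH2, the targeted gene, fell from 6.35 ± 0.251 to 2.85 ± 0.457 CPM (CPM, counts relative to the TMM-scaled library total; SD, n = 3 each), with reads left in every knockout library (34 to 61 counts). Knockout replicate 1 stood apart from knockout replicates 2 and 3 on the second principal component, which held 13.0% of the variance. Of 13 B cell marker genes with a row, 8 fell and 1 rose at an adjusted p under 0.05 in edgeR. This made 69.2% called, against 30.7% of all tested genes. The summed level of these markers was 3665 to 4000 CPM in wild type, against 2778 to 2901 CPM in the knockout. Of the T cell markers, CD4, CD28 and BCL11B were at 0 in every library, while CD3D stood at 135 ± 14.0 CPM in wild type, against 96.0 ± 10.8 CPM in the knockout. All 4 tested T cell markers fell, against 18.0% of all tested genes. Their log2 fold changes ran from -4.33 to -0.49, with a median of -2.68. The summed T cell list ran from 145 to 182 CPM in wild type, against 87.9 to 111 CPM in the knockout. Macrophage and granulocyte markers summed to 40.2 to 50.1 CPM in wild type, against 17.6 to 23.9 CPM in the knockout, nearly all of it from MPEG1, with MARCO and CEBPA at 0. Erythroid and thrombocyte markers reached at most 0.382 CPM and fibroblast markers at most 5.76 CPM in any library. Whether the shift in these markers plays a part in the results on end joining genes was not tested. In bulk RNA, fewer cells of a kind and less RNA per cell cannot be told apart.

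The 8 measured genes spanned a wide range of levels per length. The scale used for levels between genes was read as RPKM, counts relative to both gene length and library total. The gene lengths behind it are not given. RIF1 (ENSGALG00000012484), which encodes the end protection factor that acts with TP53BP1, was the most abundant at 63.0 ± 0.557 RPKM in wild type (SD, n = 3), above 82.9% of tested genes. XRCC6 (ENSGALG00000011932), the Ku70 subunit gene, followed at 34.8 ± 1.77 RPKM. XRCC5 (ENSGALG00000011492), the Ku80 subunit gene, stood at 12.4 ± 0.788 RPKM and TP53BP1 (ENSGALG00000008521) at 11.5 ± 0.363 RPKM, and the libraries of these neighbours in the order overlapped. XRCC4 (ENSGALG00000015620), the scaffold gene of the ligase complex, stood at 7.29 ± 0.385 RPKM. LIG4 (ENSGALG00000016854), the ligase gene, at 4.55 ± 0.481 RPKM, overlapped with PRKDC (ENSGALG00000012914), the DNA-PKcs gene, at 4.10 ± 0.542 RPKM. RAG2 (ENSGALG00000007940) was the lowest at 1.999 ± 0.364 RPKM, above 14.4% of tested genes. All other neighbours in the order were separated in every library. In the knockout the order was the same except that TP53BP1 and XRCC5 changed places, at 12.6 ± 0.462 and 12.3 ± 1.41 RPKM, again with overlapping libraries.

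**Figure D1:**
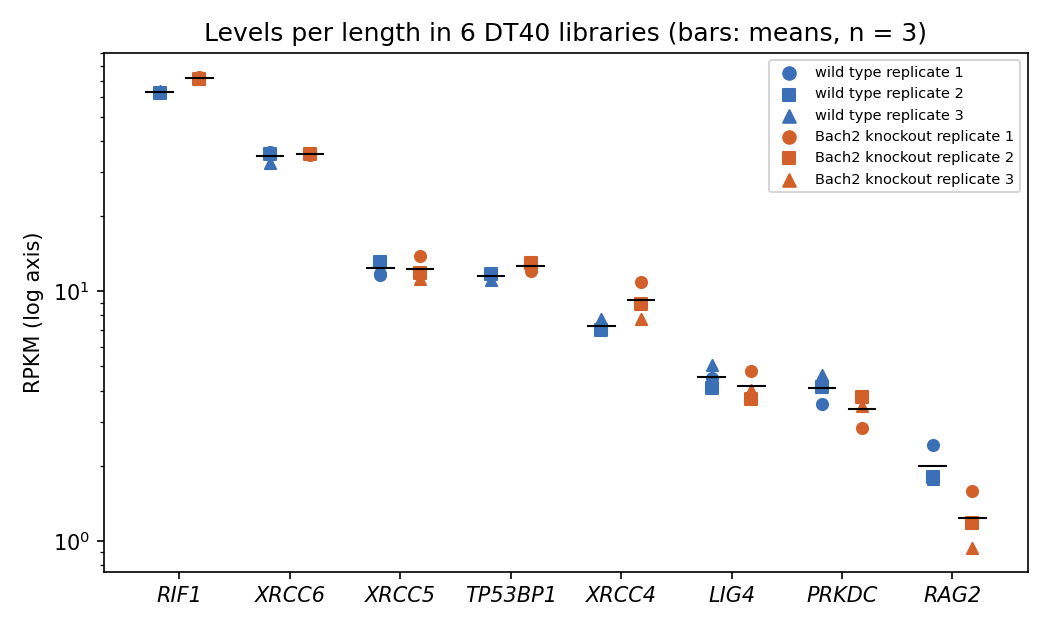
Levels per length (RPKM, log axis) of the 8 measured genes in each library, wild type in blue and Bach2 knockout in orange, with black bars at the means of 3 libraries. The order runs from RIF1 at 63.0 RPKM to RAG2 at 1.999 RPKM in wild type, and XRCC5 with TP53BP1 and LIG4 with PRKDC overlap.

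The gene models used for RPKM differ in length, which bears on how many reads support each gene. The lengths implied by the deposited values ran from about 1007 bases for XRCC4 to about 12631 bases for PRKDC. PRKDC thus had 463 to 922 counts per library although its level per length was close to that of LIG4, which had 163 to 333 counts. RAG2 had the fewest counts, 31 to 97 per library, and counting error alone gives a coefficient of variation of 18.0% at its smallest count. RIF1 had 3992 to 9563 counts per library, where counting error gives 1.58% at the smallest count.

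RAG2 was the only one of the 8 genes that passed the test between the genotypes. In wild type replicates 1, 2 and 3 it had 97, 49 and 31 counts, or 4.74, 3.58 and 3.50 CPM. In knockout replicates 1, 2 and 3 it had 40, 41 and 35 counts, or 3.06, 2.27 and 1.798 CPM. Every knockout library was below every wild type library, with the gap smallest between wild type replicate 3 and knockout replicate 1. RAG2 fell to 0.603 of its wild type level, from 3.94 ± 0.695 to 2.37 ± 0.637 CPM (SD, n = 3 each). The log2 fold change was -0.78 ± 0.27 (SE, edgeR quasi-likelihood test, adjusted p = 0.0466). Its 95% interval ran from -1.36 to -0.19. The call was not stable: it was lost without any 1 of wild type replicates 1, 2 or 3 or knockout replicates 2 or 3, with adjusted p of 0.204, 0.0888, 0.0809, 0.117 and 0.128 in edgeR. Without knockout replicate 1, where RAG2 was highest among the knockout libraries, the log2 fold change was -0.98 (edgeR adjusted p = 0.00934). DESeq2 gave -0.75 (adjusted p = 0.0639), and of the 16 alternatives run the sign was negative in 16 and the call was kept in 7.

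In all, 1 of the 8 measured genes was called, or 12.5%, where 30.7% of the 9159 tested genes were called at an adjusted p under 0.05. For decreases alone the background share was 18.0%. None of the 8 changed by 2-fold or more with an adjusted p under 0.05, against 6.53% of tested genes. At an unadjusted p under 0.05, edgeR gave 3 of the 8 genes (37.5%), RAG2, PRKDC and RIF1, against 41.7% of tested genes. The libraries of wild type and knockout were fully separated for 3 of the 8 (37.5%), RAG2, TP53BP1 and RIF1, against 46.2% of tested genes. The median log2 fold change of the 8 genes was -0.028 and that of all tested genes -0.0014.

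**Figure D2:**
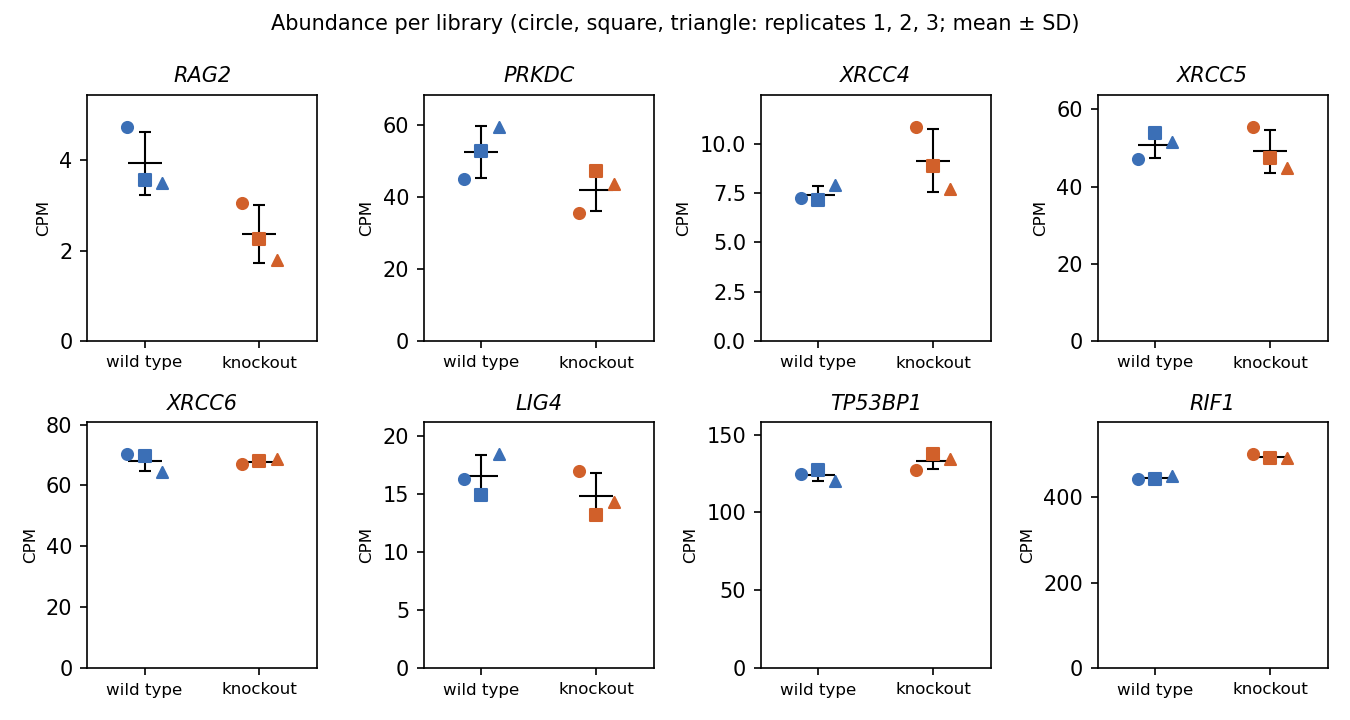
CPM of each of the 8 genes in 3 wild type (blue) and 3 Bach2 knockout libraries (orange), each axis starting at 0, with the mean and SD of each genotype. RAG2, TP53BP1 and RIF1 do not overlap between the genotypes, and knockout replicate 1 (circle) is the highest knockout library for RAG2, XRCC4, XRCC5, LIG4 and RIF1 and the lowest for PRKDC, XRCC6 and TP53BP1.

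Neither Ku gene passed the test, and the groups overlapped for both. XRCC6 had 70.3, 69.5 and 64.4 CPM in wild type replicates 1, 2 and 3, against 67.0, 67.9 and 68.5 CPM in the knockout replicates. The knockout values lay within the wild type range. Its log2 fold change was -0.0080 ± 0.071 (SE; adjusted p = 0.944 in edgeR), with a 95% interval from -0.17 to 0.15, and its sign changed between scalings: with RLE size factors it was 0.0063 and with library totals 0.027. XRCC5 had 47.1, 53.9 and 51.5 CPM in wild type, against 55.4, 47.3 and 44.7 CPM in the knockout. The groups overlapped, and the highest and the lowest library were both from the knockout. Its log2 fold change was -0.049 ± 0.098 (SE; adjusted p = 0.742 in edgeR), with a 95% interval from -0.27 to 0.17, and it was 0.033 without knockout replicate 3.

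PRKDC, whose product is the kinase that Ku brings to the end, had 45.1, 52.8 and 59.4 CPM in wild type replicates 1, 2 and 3, against 35.4, 47.1 and 43.5 CPM in the knockout replicates. The knockout values were lower on average, but the groups overlapped because knockout replicate 2 lay above wild type replicate 1. The means were 52.4 ± 7.17 and 42.0 ± 6.01 CPM (SD, n = 3 each). The log2 fold change of -0.31 ± 0.12 did not pass (SE; adjusted p = 0.0873 in edgeR), and its 95% interval ran from -0.58 to -0.031. Without knockout replicate 1, the lowest library, it was -0.19 (edgeR adjusted p = 0.149).

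XRCC4 had 7.23, 7.16 and 7.90 CPM in wild type replicates 1, 2 and 3, against 10.9, 8.91 and 7.70 CPM in the knockout replicates. The wild type libraries were close together, while the knockout libraries spread from within the wild type range to well above it. The coefficient of variation was 5.52% in wild type and 17.4% in the knockout. The log2 fold change was 0.30 ± 0.17 (SE; adjusted p = 0.204 in edgeR), with a 95% interval from -0.070 to 0.67, and it was 0.17 without knockout replicate 1. LIG4, which encodes the partner of XRCC4, had 16.3, 14.9 and 18.4 CPM in wild type, against 17.0, 13.2 and 14.3 CPM in the knockout. The groups overlapped, and the log2 fold change was -0.16 ± 0.14 (SE; adjusted p = 0.412 in edgeR), with a 95% interval from -0.46 to 0.14.

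Neither end protection gene passed the test, although the libraries of the genotypes were separated for both. RIF1 had 443, 443 and 451 CPM in wild type replicates 1, 2 and 3, against 501, 492 and 491 CPM in the knockout replicates. The groups did not overlap, and the coefficient of variation was 1.03% in wild type and 1.09% in the knockout, the smallest of the 8 genes. Both values were below the 1.58% that counting error gives at the smallest count of RIF1. The knockout mean was 11.1% above that of wild type. The SE of the fit also draws on variation estimated over all genes, so it does not measure this spread alone. The log2 fold change of 0.15 ± 0.060 did not pass (SE; adjusted p = 0.0785 in edgeR), with a 95% interval from 0.020 to 0.28. It passed in 4 of 16 alternatives: with library totals in place of the TMM scaling (0.19, edgeR adjusted p = 0.0340), in limma on RPKM with a pseudocount of 1 or 0.1, and without knockout replicate 1 (0.15, edgeR adjusted p = 0.0359). TP53BP1 had 125, 127 and 120.0 CPM in wild type, against 128, 138 and 134 CPM in the knockout. The groups did not overlap, but the nearest libraries, wild type replicate 2 and knockout replicate 1, were nearly level. Its log2 fold change was 0.10 ± 0.067 (SE; adjusted p = 0.280 in edgeR), with a 95% interval from -0.046 to 0.25.

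**Figure D3:**
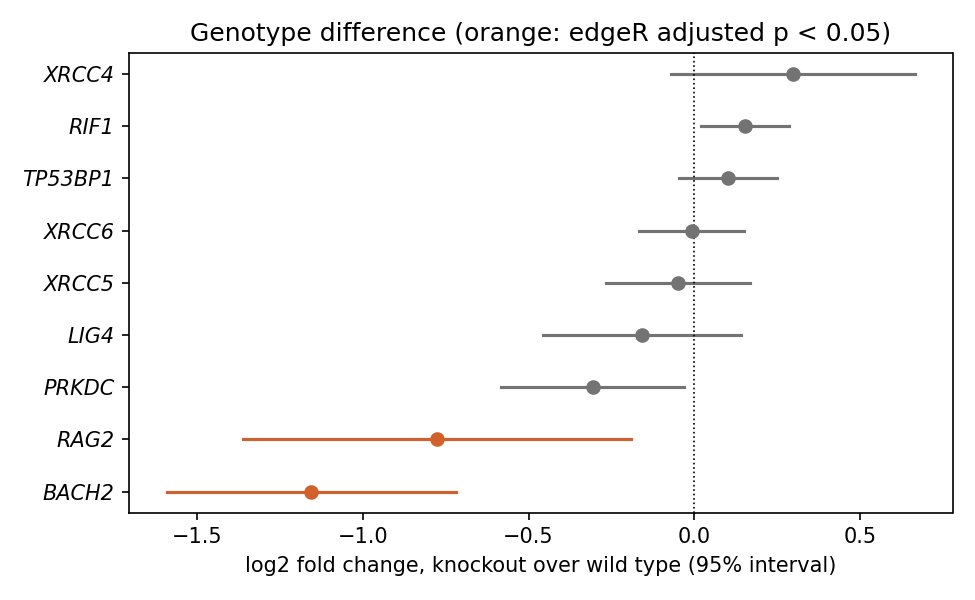
Log2 fold changes of knockout over wild type with 95% intervals from the fit on all genes, for the 8 measured genes and for BACH2, the targeted gene. BACH2 and RAG2, in orange, had an adjusted p under 0.05, and the interval of RAG2 runs from -1.36 to -0.19.

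Subunits of 1 complex were also compared within each library. The log2 ratio of XRCC5 to XRCC6 on the RPKM scale was -1.64, -1.43 and -1.38 in wild type replicates 1, 2 and 3 and -1.33, -1.58 and -1.68 in the knockout replicates. The groups overlapped throughout, so that XRCC5 RNA stood at 0.357 of XRCC6 RNA in wild type and 0.346 in the knockout, by geometric means (exact two-sided permutation test, p = 0.9, and 0.9 after Benjamini-Hochberg adjustment over the 2 ratios compared). The log2 ratio of XRCC4 to LIG4 was 0.66, 0.78 and 0.61 in wild type and 1.19, 1.27 and 0.94 in the knockout. Every knockout ratio was above every wild type ratio, although neither gene passed the test on its own. On the RPKM scale, XRCC4 RNA was 1.61 times LIG4 RNA in wild type and 2.19 times in the knockout. Such ratios between genes rest on gene lengths that are not given. Without scaling for length, XRCC4 stood at 7.43 CPM and LIG4 at 16.5 CPM in wild type. The difference between the genotypes was the same with counts in place of RPKM. The difference in log2 ratio of 0.45 had an exact two-sided permutation p of 0.1 (0.2 after the same adjustment), the smallest that 3 libraries against 3 allow, so this test cannot pass 0.05. It lay between 0.38 and 0.54 with any 1 library left out. The ratio of RAG2 to RAG1 was not analysed here.

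**Figure D4:**
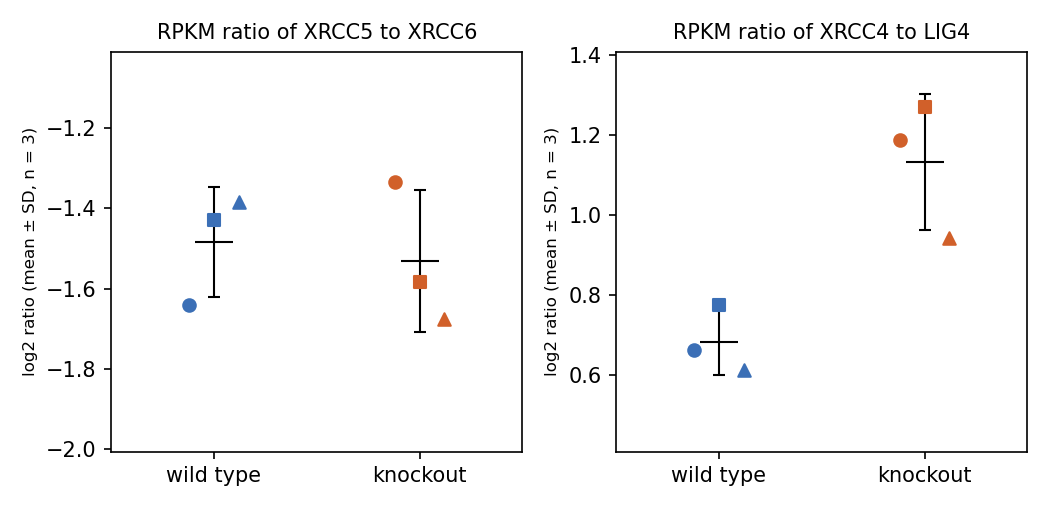
Log2 ratios of RPKM within each library for XRCC5 to XRCC6 (left) and XRCC4 to LIG4 (right), wild type in blue and knockout in orange, with the mean and SD of 3 libraries on axes of equal span. The XRCC5 to XRCC6 ratios overlap, and the 3 knockout XRCC4 to LIG4 ratios (0.94 to 1.27) lie above the wild type ratios (0.61 to 0.78).

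None of the 8 genes lies on chromosome 3, where the genes as a group had lower values in the knockout (688 tested genes, median log2 fold change -0.45). Chromosomes here are those of a RefSeq gene table of the assembly GRCg7b, which differs from the build galGal4 named for the counts. XRCC6 and LIG4 lie on chromosome 1 (median 0.083), PRKDC on chromosome 2 (0.083), RAG2 on chromosome 5 (0.020), XRCC5 and RIF1 on chromosome 7 (0.055), TP53BP1 on chromosome 10 (0.031) and XRCC4 on chromosome Z (0.11). Over all tested genes, 12.7% rose and 18.0% fell. Around RAG2, the 20 nearest tested genes had a median of 0.089, with 3 that rose and 2 that fell. Its nearest tested neighbours were TRAF6, which encodes a ubiquitin ligase of innate signalling (0.23 ± 0.16, edgeR adjusted p = 0.310), and API5 (-0.036 ± 0.071, edgeR adjusted p = 0.742). Of 3 tested genes from a fixed list of genes known to lie near the RAG locus, 1 was called. That share, 33.3%, was close to the 30.7% of all tested genes. CD44, an adhesion receptor gene, fell with a log2 fold change of -0.63 ± 0.10 (SE, edgeR adjusted p = 0.000953). TRAF6 and COMMD9 did not pass. The 20 nearest tested genes of XRCC4 had a median of 0.18, those of PRKDC 0.019 and those of LIG4 0.19. In that gene table the span of RAG2 covers C11orf74, and the span of RAG1 overlaps that of TRAF6. Whether counting used strand is not known from the sources used here, so reads of overlapping genes cannot be told apart.

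Over the 6 libraries, the genes whose log2 CPM followed RAG2 most closely were ASB3 (Pearson r = 0.997), PLA2G7 (r = 0.997) and RP11-514O12.4 (r = 0.995), out of 7344 genes with a symbol and a mean of at least 1 RPKM. All 3 were lower in the knockout, with log2 fold changes of -0.43, -0.54 and -0.66. A correlation of at least 0.9 with RAG2 was seen for 218 of the 7344 genes. The 6 points share libraries, depths and the split by genotype, so these values only describe likeness.

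On a list written for other classical end joining factors, some genes rose and 1 fell. Of 16 symbols searched, 6 genes were tested; 2 rose, 1 fell and 3 did not pass, so that 50.0% were called against the 30.7% of all tested genes, with a median log2 fold change of 0.11. DNTT, the gene of terminal deoxynucleotidyl transferase, which adds untemplated nucleotides at V(D)J junctions, had 16, 14 and 18 counts in wild type replicates 1, 2 and 3 and 44, 62 and 59 in the knockout replicates. It rose from 1.28 ± 0.663 to 3.27 ± 0.214 CPM (SD, n = 3 each), and every knockout library lay above every wild type library. The log2 fold change was 1.48 ± 0.34 (SE; adjusted p = 0.00746 in edgeR), and without wild type replicate 1 it was 1.16 (edgeR adjusted p = 0.0518). DCLRE1A, a nuclease gene of the Artemis family known mainly for crosslink repair but counted in this list, rose by 0.24 ± 0.073. Its call was lost in 4 of the 6 fits that each left out 1 library (edgeR adjusted p up to 0.109). APLF, a scaffold gene that binds Ku and poly(ADP-ribose), fell from 36.01 ± 2.91 to 21.6 ± 2.06 CPM (mean ± SD of 3; log2 fold change -0.73 ± 0.11, edgeR adjusted p = 0.000574). APLF is a chromosome 3 gene, and its difference from the median of the genes there was -0.28. DCLRE1C, the gene of the hairpin-opening nuclease Artemis, did not pass (0.11 ± 0.21, edgeR adjusted p = 0.725).

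A list written for alternative end joining, the backup route that uses short homologies, held 10 tested genes. Of these, 1 rose, 3 fell and 6 did not pass, with 40.0% called beside the 30.7% of all tested genes and a median of -0.056. Some genes of the list also act outside this route, and PARP3 is known as a factor of classical end joining too. LIG3, the ligase gene of this route, rose from 219 ± 2.75 to 269 ± 2.81 CPM (mean ± SD of 3; log2 fold change 0.29 ± 0.061, edgeR adjusted p = 0.00440). PARP1, the gene of the break sensor that makes poly(ADP-ribose), fell from 921 ± 29.0 to 659 ± 25.1 CPM (log2 fold change -0.48 ± 0.065, edgeR adjusted p = 0.000305). PARP1 is also a chromosome 3 gene, with a difference of -0.030 from that median. PARP3 fell by 0.73 ± 0.23 and NBN, a subunit gene of the MRE11 complex, by 0.52 ± 0.16 on the log2 scale. The call of PARP3 was lost in 4 and that of NBN in 5 of the 6 fits that each left out 1 library. The edgeR adjusted p reached up to 0.107 and 0.113. POLQ, the gene of a polymerase of this route, did not pass (0.044 ± 0.11, edgeR adjusted p = 0.802). LIG1 was among the 4849 genes of the tables with no count in any library. Whether its gene model or a lack of RNA accounts for this was not tested.

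Around TP53BP1 and RIF1, 16 genes of break signalling and end protection were tested; 2 rose, 1 fell and 13 did not pass, which makes 18.8% called beside 30.7% of all tested genes, with a median of -0.019. RNF8, a ubiquitin ligase gene upstream of TP53BP1 recruitment, fell from 164 ± 17.6 to 112 ± 10.2 CPM (mean ± SD of 3; log2 fold change -0.55 ± 0.096, edgeR adjusted p = 0.00166). RNF8, too, is on chromosome 3, with a difference of -0.092 from that median. PAXIP1, the gene of a TP53BP1 partner, rose by 0.28 ± 0.078 and FAM35A, the shieldin subunit gene also called SHLD2, by 0.50 ± 0.17 on the log2 scale. The call of PAXIP1 was lost in 3 and that of FAM35A in 5 of the 6 fits that each left out 1 library. The edgeR adjusted p reached up to 0.0944 and 0.140. ATM, the gene of the kinase that starts the signal, did not pass (-0.16 ± 0.082, edgeR adjusted p = 0.164), nor did MAD2L2, another shieldin subunit gene (0.030 ± 0.11, edgeR adjusted p = 0.860). A list of end resection, the step that TP53BP1 and RIF1 oppose, held 13 tested genes. Of these, 1 rose, 0 fell in edgeR and 12 did not pass, or 7.69% called beside 30.7% of all tested genes, with a median of 0.12. MRE11A, RAD50, NBN and RBBP8, which also act in resection, were counted with alternative end joining instead. Among them NBN fell (-0.52 ± 0.16, edgeR adjusted p = 0.0286), and MRE11A, RAD50 and RBBP8 did not pass. The gene of the resection list that rose was RPA3, a subunit gene of the single-strand binding complex (0.47 ± 0.072, edgeR adjusted p = 0.000778), while RPA1 and RPA2 were at -0.018 and -0.050. EXO1, a resection nuclease gene on chromosome 3, was at -0.21 ± 0.077 (edgeR adjusted p = 0.0582). It was called where only genes of at least 1 RPKM were tested (-0.22, edgeR adjusted p = 0.0491), with scaling from genes not on chromosome 3 (-0.23, edgeR adjusted p = 0.0460) and without knockout replicate 1 (-0.26, edgeR adjusted p = 0.00729). Its difference from the chromosome 3 median was 0.24.

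A further list held genes that act with the RAG proteins or on the RAG locus. Among the 21 that were tested, 3 rose, 8 fell and 10 were not called, so that 52.4% were called against 30.7% of all tested genes, with a median of -0.19. Both HMGB genes, whose products bend DNA in the RAG complex, rose: HMGB1 by 0.31 ± 0.088 and HMGB2 by 0.41 ± 0.072 on the log2 scale (SE; adjusted p = 0.0238 and 0.00173 in edgeR). The call of HMGB1 was lost in 3 of the 6 fits that each left out 1 library (edgeR adjusted p up to 0.105). ZNF608, a repressor of RAG expression in mouse thymocytes, rose from 1.40 ± 0.0781 to 4.46 ± 1.14 CPM (mean ± SD of 3; log2 fold change 1.66 ± 0.27, edgeR adjusted p = 0.00118). ETS1, a transcription factor gene, fell from 182 ± 4.07 to 112 ± 8.44 CPM (log2 fold change -0.70 ± 0.074, edgeR adjusted p = 6.50e-05). RUNX1 and IKZF3, both lymphoid transcription factor genes, fell by 0.58 ± 0.16 and 0.52 ± 0.10 on the log2 scale. Without wild type replicate 1 the number that fell was 5, and RUNX1 was at -0.42 (edgeR adjusted p = 0.103). The list mixes activators, repressors and cofactors, and 2 of its 21 tested genes lie on chromosome 3, where the median was -0.45. PAX5 and EBF1, which were among the genes that fell, are also B cell markers, and the part of the lower B cell markers in this count was not tested.

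**Figure D5:**
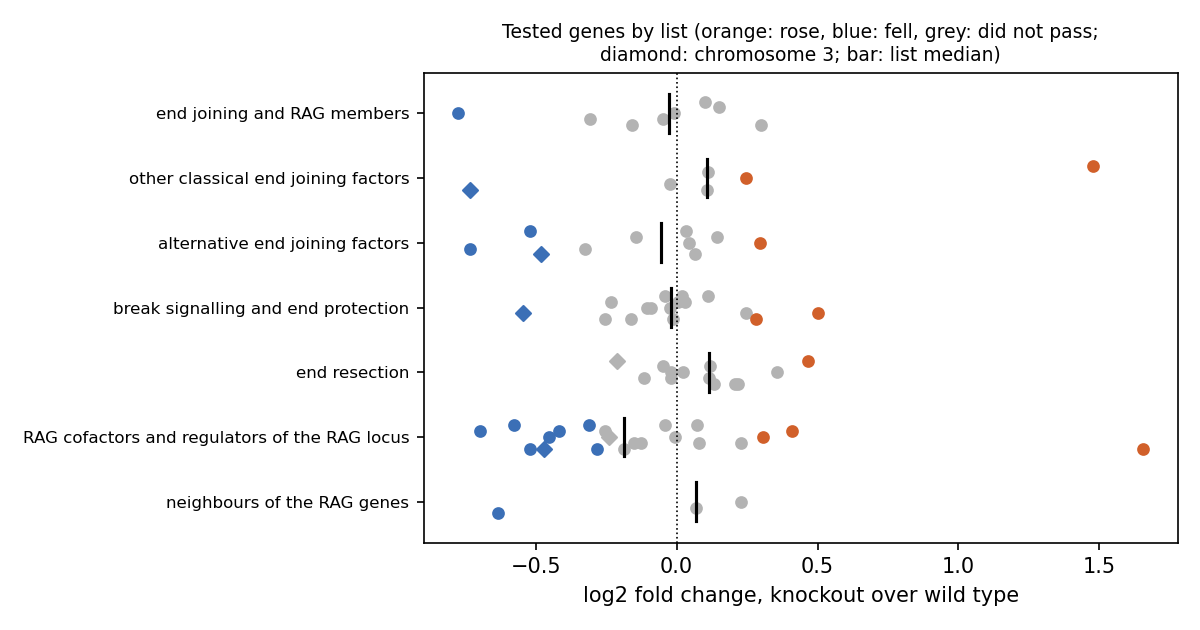
Log2 fold changes of knockout over wild type for the tested genes of each list, with genes that rose in orange, genes that fell in blue and genes that did not pass in grey. Diamonds mark chromosome 3 and black bars the list medians, which run from -0.19 for the RAG cofactors and regulators to 0.12 for end resection.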

How the data were processed

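The authors deposited raw counts for 17108 Ensembl genes in 6 libraries, as whole numbers, and a further table read as RPKM. Each of its values is the count multiplied by a factor of its gene and a factor of its library. Other units scaled by length and depth share that form, so it does not settle the unit. The gene lengths and library totals behind the values are not given. The submitters' processing notes name the build galGal4, Subread 1.5.0, TopHat2 2.1.0, bcl2fastq 1.8.4, limma and edgeR, with no role for any of them. All value columns were matched to a sample. No libraries of a genotype agreed within sampling noise (chi-square per degree of freedom 3.10 to 27.7).

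Counts were tested in R 4.3.3 with edgeR 4.0.16 on all 6 libraries: filterByExpr (9159 genes), TMM (factors 0.985 to 1.02), glmQLFit and glmQLFTest, two-sided, without covariates, Benjamini-Hochberg over all tested genes, threshold 0.05. SE is the log2 fold change divided by the square root of F. Intervals use the total degrees of freedom of the test, which are the residual ones plus the prior ones that edgeR estimates over genes. Alternatives used DESeq2 1.42.0 and limma 3.58.1. The members, lists and tests were chosen with earlier results of these data known. Genes named by rule are BACH2, the 8 members with a row, up to 4 called genes per list with the largest change, and the 3 genes most like RAG2. HMGB1, HMGB2 and the genes of lists named as not passing were chosen after their values were seen, as were the neighbouring genes. PAX5, EBF1 and the other cell type markers named, such as CD3D and MPEG1, fall outside that rule too. The fit was tested on simulated data. The cultures are described as independent per the labels' protocols. Counting error limits low genes: 3 counts correspond to 0.147 to 0.339 CPM in single libraries. No sequences are shown.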

Additional observations from a re-analysis of the deposited data

How the results depend on the processing

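Settings were changed 1 at a time, and the scaling from genes not on chromosome 3 was chosen after seeing the data. BACH2, XRCC4, LIG4 and TP53BP1 kept their sign and their side of the threshold in 16 of 16 alternatives. RAG2 kept its sign in 16 and its call in 7. Its log2 fold change without a call was -0.74 with library totals, -0.75 with DESeq2, -0.67 in limma on log2(RPKM + 0.1) and -0.74 with the replicate block, and it ran from -0.98 to -0.59 with 1 library left out. RIF1 was past the threshold at 0.19 with library totals and at 0.18 in limma on log2(RPKM + 1) and on log2(RPKM + 0.1), and ran from 0.15 to 0.17 with 1 library left out. PRKDC was past it with the replicate block (-0.32, edgeR adjusted p = 0.0331). The sign of XRCC6 turned with RLE size factors (0.0063), library totals (0.027), DESeq2 (0.0058) and limma on log2(RPKM + 1) (0.027) and log2(RPKM + 0.1) (0.028). With 1 library left out, XRCC6 ran from -0.042 to 0.016, XRCC5 from -0.14 to 0.033, PRKDC from -0.41 to -0.19 and the log2 ratio of XRCC5 to XRCC6 from -0.15 to 0.026. The wild type level of RIF1 was 63.8 RPKM with TMM-adjusted totals.

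The number of the 8 genes that rose was 1 in place of 0 with library totals and in both limma fits on RPKM, where it was RIF1. The number that fell was 0 with library totals, DESeq2 and limma on log2(RPKM + 0.1). With 1 library left out, each ran from 0 to 1. Among genes of at least 1 RPKM, 1 other classical factor rose, 1 break signalling gene rose and 1 gene of the end resection list, EXO1, fell. DNTT and FAM35A, which rose in the main fit, were below that level and were not tested there. EXO1 was also the 1 gene of the end resection list that fell with the scaling from genes not on chromosome 3. In limma-voom and both limma fits on RPKM, 1 break signalling gene rose. With the replicate block, 1 other classical factor and 1 break signalling gene rose. With 1 library left out, rising genes ran from 0 to 2 for other classical factors, from 0 to 3 for break signalling and from 1 to 2 for end resection. Falling genes ran from 1 to 3 for alternative end joining, from 1 to 2 for break signalling, from 0 to 1 for end resection and from 5 to 10 for RAG cofactors and regulators. Over all tested genes, the number that rose ran from 639 to 1483 with 1 library left out, against 1163. All calls ran from 1816 to 3436, against 2810. They were fewer without any 1 wild type library or knockout replicate 2, and more without knockout replicate 1 or 3. Lost calls of single genes in the former fits thus go along with fewer calls over all genes. That does not hold without knockout replicate 3, where all calls were 3062. There RAG2, NBN and FAM35A lost their calls (edgeR adjusted p = 0.128, 0.0753 and 0.114). Replicate numbers did not pair the libraries: deviations of same-numbered libraries correlated at 0.0036, 0.093 and -0.021, 2 of 6 libraries correlated best with their own number, and the block moved all calls from 2810 to 2576. The cause of these changes was not tested. Among the genes named, low counts limit RAG2, DNTT and ZNF608 in particular.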
